A study of Drosophila melanogaster with 2 samples.

Results

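Peaks of the zinc-finger protein Oaz were examined around 9 genes of the posterior spiracle, chosen by name with earlier results of these data known, out of 13968 protein-coding genes on the chromosome arms. They are the regulators Abd-B, ems, ct, salm, grn and upd1 and the cell-shape genes crb, shg and Cad96Ca. A peak was counted for a gene when its summit lay in the gene body or up to 20 kb to either side, and the 9 windows held 19 of the 2772 arm peaks in the authors' optimal list. The peaks came from chromatin immunoprecipitation and sequencing (ChIP-seq) of whole Drosophila melanogaster embryos collected over 0 to 24 hours. The flies were transgenic, of a strain labelled Oaz-GFP, and expressed Oaz fused to eGFP from an insertion; the sources used here do not give the promoter or the copy number of the fusion. The precipitating antibody was directed against GFP, although another field of the labels names Oaz as the antibody. There was 1 group with 2 biological replicates, no second condition and no untagged group among the samples, so every value below is a description set beside all genes or all peaks, with no test. The list of replicate 1 held 1833 peaks and that of replicate 2 held 1680. With no read counts used here, sequencing depth is unknown, and the 95% intervals take in only the counting error of peaks or genes. The tissue was the whole embryo, in which the posterior spiracles are a small part. Binding in few cells and weak binding in many cells therefore cannot be told apart, nor can spiracle cells from any other cells.

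The posterior spiracles are the paired openings at the rear of the larval tracheal system. Each is built from an internal spiracular chamber, which invaginates and secretes the filzkörper filter, and an external stigmatophore, which pushes outward around it. The Hox gene Abd-B starts the programme in the embryo. It acts through the transcription factors cut (ct), empty spiracles (ems), grain (grn, a GATA factor) and spalt major (salm), and through unpaired 1 (upd1), a secreted ligand of the JAK/STAT pathway. These regulators in turn control proteins that shape cells, among them the apical polarity protein Crumbs (crb) and the adhesion proteins E-cadherin (shg) and Cad96Ca, a cadherin with a receptor tyrosine kinase domain. Oaz, a protein with many zinc fingers related to a vertebrate partner of EBF and SMAD proteins, is itself needed for normal posterior spiracles.

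Of the 7 peaks whose nearest transcription start site (TSS) belongs to a spiracle gene and not to a neighbour, the summit windows of 6 are shown first, because distance to the nearest TSS assigns them to the spiracle genes; shg peak 2 is described by its values alone. Each holds the summit and 100 bp to either side, from the Release 6 (dm6) genome, plus strand, 5′ to 3′. Peaks are numbered from left to right within each gene's window. Capitals mark matches on either strand to any of 8 short motifs that were searched. The motifs were ACAGTG, a 6-mer chosen in an earlier look at the summits of this list; GCACCC, a site of vertebrate relatives of Oaz; TTTATGG for Abd-B; TTCNNNGAA for STAT; TATCGATA, the DNA replication-related element; TAATTA for homeodomains; AGATAA for GATA factors; and GAGAGA for GAGA factor.
ems peak 1, chr3R:13914773-13914973: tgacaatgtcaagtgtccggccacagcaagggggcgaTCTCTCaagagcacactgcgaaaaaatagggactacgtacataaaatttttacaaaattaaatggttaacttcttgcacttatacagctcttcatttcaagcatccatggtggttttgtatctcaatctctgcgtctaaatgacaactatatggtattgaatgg
ems peak 2, chr3R:13915744-13915944: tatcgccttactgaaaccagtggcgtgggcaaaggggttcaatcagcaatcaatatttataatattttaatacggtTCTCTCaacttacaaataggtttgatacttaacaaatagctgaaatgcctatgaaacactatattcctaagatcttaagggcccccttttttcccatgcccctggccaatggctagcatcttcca
ct peak 1, chrX:7618286-7618486: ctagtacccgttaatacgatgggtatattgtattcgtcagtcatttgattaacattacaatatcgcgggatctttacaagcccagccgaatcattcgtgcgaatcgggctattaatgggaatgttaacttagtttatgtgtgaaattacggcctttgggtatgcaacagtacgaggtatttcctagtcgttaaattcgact
upd1 peak 1, chrX:18294145-18294345: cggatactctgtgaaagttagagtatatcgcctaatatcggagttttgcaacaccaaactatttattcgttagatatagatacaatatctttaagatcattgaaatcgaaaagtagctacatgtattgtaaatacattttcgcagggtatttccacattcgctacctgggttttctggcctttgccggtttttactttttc
crb peak 3, chr3R:24295958-24296158: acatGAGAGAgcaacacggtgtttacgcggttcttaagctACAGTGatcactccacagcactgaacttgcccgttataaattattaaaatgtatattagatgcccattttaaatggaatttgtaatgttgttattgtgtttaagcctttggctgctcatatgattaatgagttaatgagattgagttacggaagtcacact
Cad96Ca peak 2, chr3R:25207521-25207721: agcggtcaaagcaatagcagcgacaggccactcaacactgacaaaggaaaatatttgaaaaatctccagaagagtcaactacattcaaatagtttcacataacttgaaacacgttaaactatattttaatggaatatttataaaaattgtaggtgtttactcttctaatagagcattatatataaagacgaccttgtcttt

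The windows of 3 peaks whose nearest TSS belongs to a neighbouring gene are shown for comparison, because they are the strongest of the Abd-B and ct windows (Abd-B peak 1 and ct peak 6) or carry a pair of ACAGTG copies (Abd-B peak 1 and ct peak 4).
Abd-B peak 1, chr3R:16986551-16986751: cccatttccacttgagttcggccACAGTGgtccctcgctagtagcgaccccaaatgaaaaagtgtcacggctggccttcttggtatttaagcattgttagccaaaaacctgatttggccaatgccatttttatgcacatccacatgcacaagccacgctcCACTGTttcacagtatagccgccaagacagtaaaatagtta
ct peak 4, chrX:7692785-7692985: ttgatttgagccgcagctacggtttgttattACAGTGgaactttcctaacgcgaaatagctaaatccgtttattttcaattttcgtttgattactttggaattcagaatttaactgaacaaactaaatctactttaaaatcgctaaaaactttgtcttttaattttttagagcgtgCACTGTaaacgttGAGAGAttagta
ct peak 6, chrX:7698331-7698531: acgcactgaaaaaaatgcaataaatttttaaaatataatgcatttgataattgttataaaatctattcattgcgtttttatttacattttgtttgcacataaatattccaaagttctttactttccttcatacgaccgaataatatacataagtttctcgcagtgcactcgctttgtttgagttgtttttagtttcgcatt

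Of the 9 genes, 7 had at least 1 peak in the window (77.8%, Wilson interval 45.3 to 93.7), where 65.4% of all protein-coding genes did. The share of the spiracle genes is near this background, which the interval includes. The genes ct, crb, shg, ems, Cad96Ca, Abd-B and upd1 held 6, 4, 3, 2, 2, 1 and 1 peaks, and salm and grn held none. The median was 2 peaks for the spiracle genes and 1 for all genes, but spiracle genes are also longer, with a median body of 11.3 kb against 2.16 kb. Per length, the 565 kb of the 9 windows held 3.36 peaks per 100 kb (exact Poisson interval 2.02 to 5.25), and the arms as a whole held 2.02. Neighbouring peaks are not independent, which the interval does not take into account. The gene bodies alone held 4 peaks in 205 kb, or 1.95 per 100 kb. A further 10 summits lay downstream of the genes and 5 upstream. In the list of replicate 1 alone the windows held 15 peaks, and in that of replicate 2 they held 8, so the count is smaller by over 1.5 times without replicate 1.

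**Figure D1:**
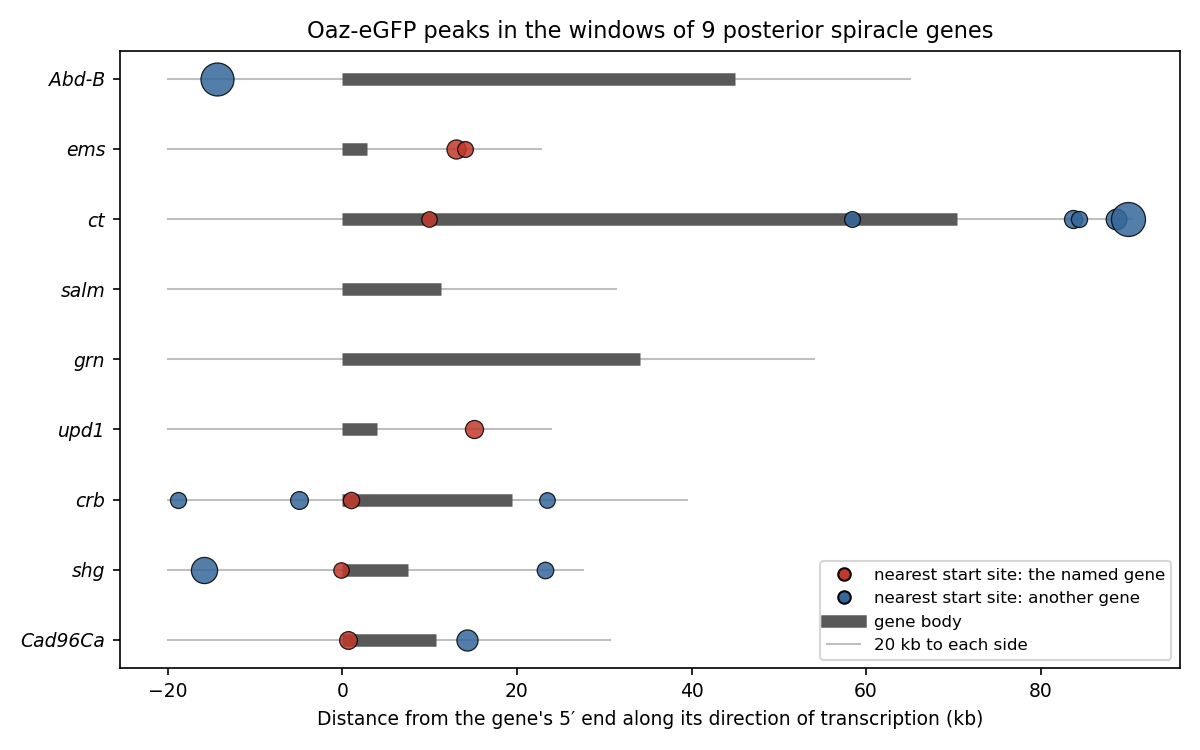
Positions of the 19 peaks in the 9 gene windows, in kb from the 5′ end of each gene along its direction of transcription. Dark bars are gene bodies, thin lines reach 20 kb to each side, and the area of a dot is proportional to the peak's signal; red dots have their nearest TSS in the named gene and blue dots in another gene. The largest dots are blue, and salm and grn have none.

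Most peaks of the windows were closer to the start of a neighbouring gene than to that of the spiracle gene. The spiracle gene had the nearest TSS for 7 of the 19 peaks (36.8%, Wilson interval 19.1 to 59.0). Over all 19128 pairs of a gene and a peak in its window, the gene had the nearest TSS in 14.5%. These 7 peaks belonged to ems (2 peaks), ct, upd1, crb, shg and Cad96Ca. Counted by gene, 6 of 9 spiracle genes (66.7%, Wilson interval 35.4 to 87.9) had the nearest TSS to some peak, against 14.9% of all genes. Neither comparison takes gene length or the spacing of genes into account, and neither was tested. The spiracle genes are longer, and the ems and upd1 peaks lay between genes, 13020 to 14014 bp from the TSS. Signals of the 7 peaks ran from 78.5 to 121 with a median of 87.2, below the arm median of 103. The other 12 peaks were nearest to 8 neighbouring genes and had signals from 80.0 to 381 with a median of 106. The ranges overlap, but the 5 strongest peaks of the windows, those above 121, were all nearest to a neighbour. Summits within 500 bp of any protein-coding TSS numbered 8 of 19 (42.1%), near the 44.1% of all arm peaks, and 7 of these 8 lay at the start of a neighbour.

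**Figure D2:**
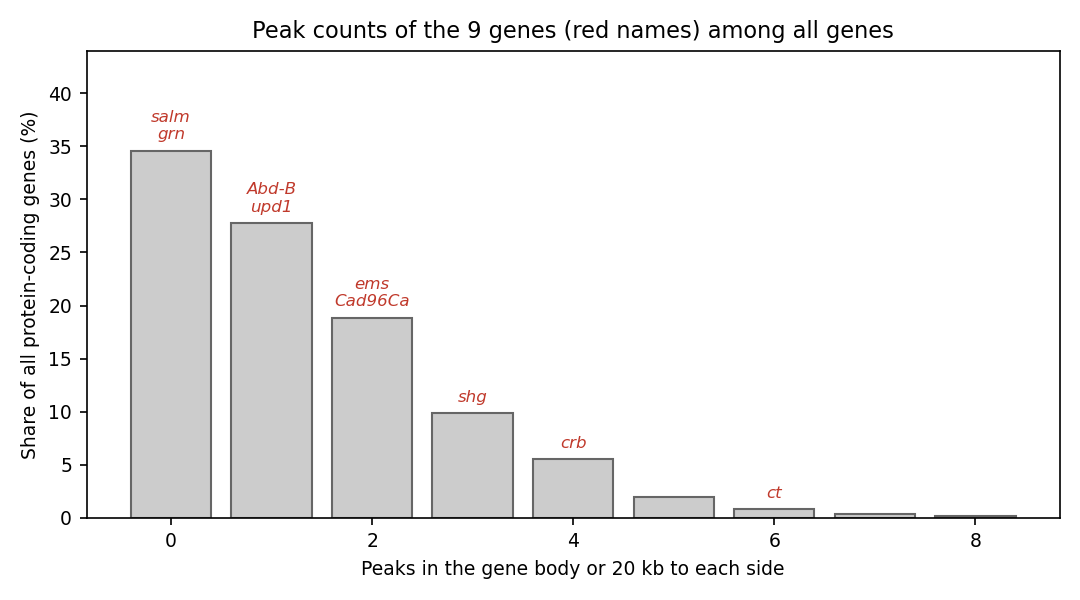
Share of all 13968 protein-coding genes (vertical axis, in percent) by the number of peaks in the gene body or 20 kb to each side (horizontal axis), with the 9 spiracle genes named in red above the bar of their own count. Counts above 8, found at 16 genes, are not drawn. The genes salm and grn sit in the bar of 0 peaks with 34.6% of all genes, and ct sits at 6 peaks.

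Abd-B, the Hox gene at the head of the programme, had no peak in its body. It is a gene of 45025 bp (FBgn0000015, 3R 16927212 to 16972236, minus strand, dm6). The window held 1 peak, at 3R 16986557 to 16986727, and its summit lay 14415 bp upstream of the closest Abd-B TSS. The nearest TSS, 199 bp away, was that of CG18622 (FBgn0038460), so this is a promoter peak of the neighbour. It was among the stronger peaks of the whole list, with a signal of 359, rank 154 of 2846, and signals of 184 in replicate 1 and 178 in replicate 2. Both replicate lists held it, at ranks 209 of 1833 and 114 of 1680. Inside Abd-B, the strongest entry of the longer ranked list was at 3R 16948793 to 16949122, with a signal of 57.2 and an irreproducible discovery rate (IDR, a measure of how unlike a peak ranks in repeated measurements) of 0.651, while the optimal list held no IDR above 0.01. With 50 kb to each side in place of 20 kb, the Abd-B window still held 1 peak.

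The homeobox gene ems had a pair of peaks downstream, both nearer to ems than to any other TSS. The gene (FBgn0000576, 3R 13901853 to 13904620, plus strand) is 2.77 kb long. Peak 1, at 3R 13914708 to 13915037, lay 13020 bp downstream of the ems TSS between genes, with a signal of 121 and rank 1130. Its signals were 68.5 in replicate 1 and 48.8 in replicate 2, and it was in both replicate lists. Peak 2, at 3R 13915679 to 13916008 and 13991 bp from the TSS, had a signal of 82.2 at rank 1894. Replicate 1 listed it with 49.6; in replicate 2 it reached 37.2 in the ranked list, at an IDR of 0.528, and was not listed. Peak 1 is therefore the better supported of the pair. No listed peak lay closer to the ems TSS than 13020 bp.

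The window of ct, which encodes a homeodomain protein, held 6 peaks, a number that 1.45% of all protein-coding genes reached. The gene (FBgn0004198, X 7608428 to 7678859, plus strand) has a body of 70.4 kb, so its window is the widest of the 9. Introns of ct held 2 of the peaks, and neither was in a replicate list. Peak 1, at X 7618221 to 7618550, lay 9238 bp inside from the nearest ct TSS, with a signal of 79.3; its ranked signals were 55.7 in replicate 1 (IDR 0.0103) and 23.2 in replicate 2 (IDR 0.858). Peak 2, at X 7666671 to 7667000 and nearest to a CHES-1-like TSS, had a signal of 82.4, with ranked signals of 32.9 and 43.3 and an IDR above 0.5 in both replicates. The conservative list of the authors did not hold peak 1 and held another ct intron peak instead, at X 7651633 to 7651962, with a signal of 74.0. Which peaks are listed inside ct thus differed between the authors' lists.

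The other 4 peaks of the ct window lay beyond its 3′ end, inside CHES-1-like (FBgn0029504), a gene for a forkhead transcription factor. Peak 6, at X 7698319 to 7698501 in an intron of CHES-1-like, was the strongest of all 19, with a signal of 381 at rank 132. Its signals were 207 in replicate 1 and 170 in replicate 2. Peak 5, at X 7696879 to 7697208, lay 340 bp upstream of a CHES-1-like TSS with a signal of 140, and replicate 2 (71.1) was above replicate 1 (64.9) there. Peaks 5 and 6 were in both replicate lists. Peak 3 (signal 108) and peak 4 (signal 86.1), at 2766 and 2033 bp from the nearest CHES-1-like TSS, were listed in replicate 1 alone, with 76.5 and 47.7. All 6 peaks of the window lay over 9 kb from any ct TSS, and the replicated ones belonged by distance to CHES-1-like.

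The genes salm and grn had no listed peak in their windows under the optimal, the conservative or either replicate's list. salm (FBgn0261648, 2L 11434311 to 11445614, minus strand) encodes a zinc-finger protein of the stigmatophore. Its closest listed peak lay 85085 bp from the gene, so that even 50 kb to each side held none. The strongest ranked entry of the salm window, at 2L 11447570 to 11447899 and 2121 bp upstream of the TSS, had a signal of 59.5 and an IDR of 0.0282, with 24.0 in replicate 1 and 33.0 in replicate 2. That entry missed the threshold and ranked 3860 of 150275. grn (FBgn0001138, 3R 8147368 to 8181444, minus strand) had its closest listed peak 33304 bp beyond the gene body. Its strongest ranked entry, at 3R 8174091 to 8174420 inside the gene, had a signal of 57.3 and an IDR of 0.0713, with 32.3 and 21.5 in the replicates. Of all protein-coding genes, 34.6% also held no peak in the window, so the lack of a peak is common.

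The ligand gene upd1 had 1 peak, and both replicates listed it. The gene (FBgn0004956, X 18305354 to 18309291, minus strand) is 3.94 kb long. The peak, at X 18294080 to 18294409 between genes, lay 14014 bp downstream of the nearest upd1 TSS, with a signal of 108 at rank 1312. Its signals were 61.1 in replicate 1 and 49.7 in replicate 2. The same peak falls in the window of upd3, a related ligand gene next to it, at 17012 bp from the upd3 TSS. The window of upd2, another ligand gene of the family, held no peak.

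All 3 cell-shape genes had a summit within 1000 bp of one of their own TSSs, while none of the 6 regulators did. Over the 9 genes this was 3 (33.3%, Wilson interval 12.1 to 64.6) against 14.0% of all protein-coding genes. The interval includes the share of all genes, and the difference between cell-shape genes and regulators was not tested. The summits lay 124 bp (shg), 662 bp (Cad96Ca) and 980 bp (crb) from the TSS, so within 500 bp only shg had one. With either replicate left out, 2 genes had a summit within 1000 bp. The share of all genes was 9.57% without replicate 1 and 10.1% without replicate 2. Of the 3 peaks, both replicate lists held only that of Cad96Ca. None of the 3 peaks at these starts had an IDR of 0.001 or less, a level at which 46.1% of arm peaks lay. The cell-shape windows held 9 peaks, or 5.71 per 100 kb, and the regulator windows 10 peaks, or 2.45 per 100 kb. Counting only peaks in both replicate lists, the densities were near each other, with 2 peaks (1.27 per 100 kb) for cell-shape genes and 5 peaks (1.23 per 100 kb) for regulators. In the list of replicate 2 alone the cell-shape windows held 3 peaks (1.90 per 100 kb) and the regulator windows 5, and in that of replicate 1 alone they held 7 (4.44 per 100 kb) and 8 (1.96 per 100 kb). Of the 9 cell-shape peaks, the promoters of neighbouring genes held 5 and that of shg held 1.

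For crb, whose product fixes the apical surface of epithelial cells, the window held 4 peaks and none was in both replicate lists. The gene (FBgn0259685, 3R 24295078 to 24314541, plus strand) had peak 3, at 3R 24295893 to 24296222, in an intron 980 bp downstream of a TSS. Its signal was 87.2 at rank 1755. Replicate 2 listed it with 47.5, and in replicate 1 it had 42.0 at an IDR of 0.0115, just past the threshold. The other 3 peaks lay at starts of neighbours. Peak 1, at 3R 24276081 to 24276410, was 14 bp from the TSS of Orct, an organic cation transporter gene, with a signal of 84.9 and no replicate listing. Peak 2, at 3R 24289974 to 24290303, was 33 bp from the TSS of Uck, a uridine-cytidine kinase gene, with a signal of 104 and 60.9 in replicate 1. Peak 4, at 3R 24318316 to 24318645, was 62 bp from the TSS of Nab2, a gene for a poly(A) RNA-binding protein, with a signal of 80.0 and 48.3 in replicate 1.

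Cad96Ca had 1 peak near its own start and 1 near that of a neighbour. The gene lies at 3R 25197571 to 25208283 on the minus strand (FBgn0022800). Peak 2, at 3R 25207456 to 25207785, lay 662 bp downstream of the Cad96Ca TSS in an intron, in a stretch that the gene CG13654 also covers. It had a signal of 104 at rank 1391, and both replicates listed it, with 58.5 and 46.5. It was the only peak within 1000 bp of the start of one of the 9 genes that both replicate lists held. Peak 1, at 3R 25193823 to 25194152, had its summit 212 bp from the start of lobo, a gene of the sperm flagellum, with a signal of 147, 95.1 in replicate 1 and 56.1 in replicate 2, where its IDR of 0.0382 kept it off the list.

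The E-cadherin gene shg had a peak directly at its start, and a stronger one 15889 bp away at another gene. The gene (FBgn0003391) spans 2R 21049654 to 21057197 on the minus strand. Peak 2, at 2R 21057156 to 21057485, lay 124 bp upstream of the TSS. Its signal of 78.5, at rank 2030, was the lowest of the 19. Replicate 1 listed it with 52.8 and replicate 2 had 27.3, at an IDR of 0.574, so the support at the shg promoter came from replicate 1. Peak 3, at 2R 21072921 to 21073250, had its summit 297 bp from the start of CG10527, with a signal of 226 at rank 390, and the replicates had nearly equal signals of 112 and 111. Peak 1, at 2R 21033872 to 21034201, lay between genes, 8959 bp from the TSS of ND-B14.7, which encodes a subunit of mitochondrial complex I, with a signal of 89.9, and replicate 1 alone listed it, with 55.5.

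**Figure D3:**
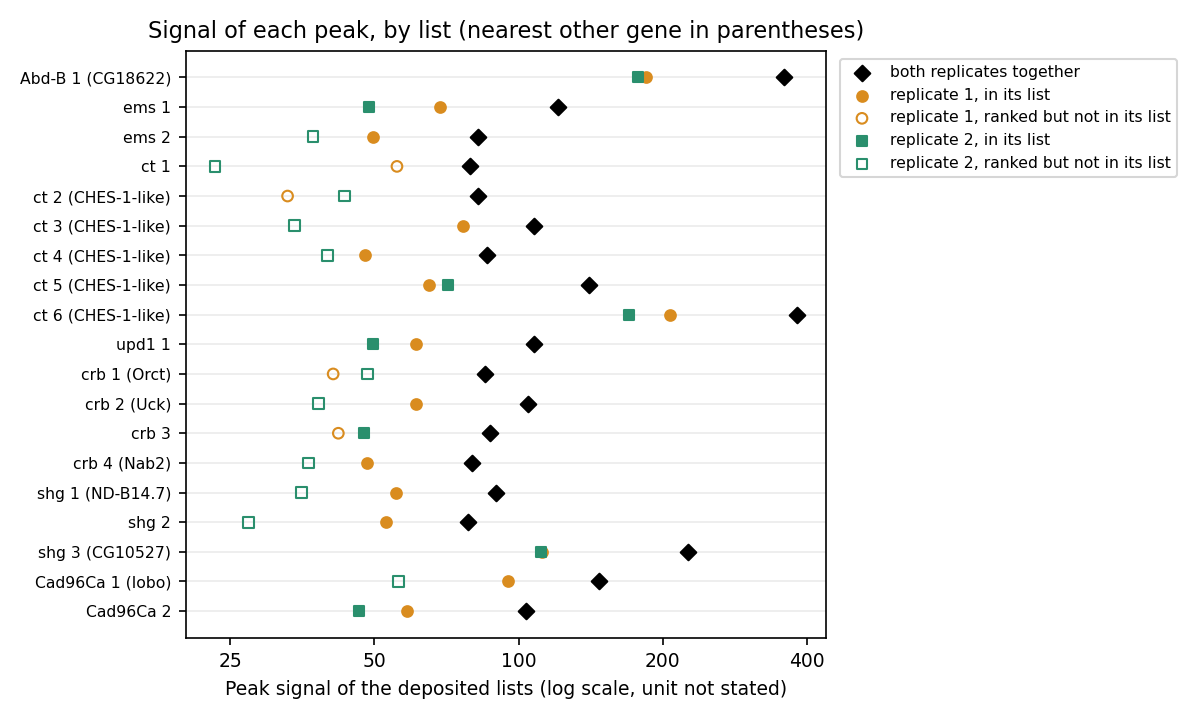
Signal of each of the 19 peaks (horizontal axis, log scale, unit not stated) in the joint list of both replicates (diamonds), replicate 1 (circles) and replicate 2 (squares); the nearest gene stands in parentheses where it is not the named gene. Filled symbols are peaks in that replicate's thresholded list and open symbols are entries of its longer ranked list only. Open squares, 11 in all, are more common than open circles, of which there are 4.

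Support in both replicates was found for 7 of the 19 peaks (36.8%, Wilson interval 19.1 to 59.0), against 45.5% of all arm peaks. Replicate 1 alone listed 8, replicate 2 alone listed 1 (crb peak 3), and 3 were in neither list (ct peaks 1 and 2 and crb peak 1). Of the 2772 arm peaks, 434 were listed in replicate 1 alone, 318 in replicate 2 alone and 760 in neither. These differences from the arm peaks were not tested. Window peaks found in both replicates had joint signals from 104 to 381 and the other window peaks from 78.5 to 147, so the groups overlap. By gene, 6 of 9 had a peak in both lists, where 43.0% of all genes did; these were Abd-B, ems, ct, upd1, shg and Cad96Ca. All 19 peaks overlapped an entry in the ranked list of each replicate, but those lists held 130607 and 81899 entries. The same overlap was not counted for all arm peaks. The 11 peaks that replicate 2 did not list had signals there of 23.2 to 56.1, at an IDR from 0.0133 to 0.858. The 4 that replicate 1 did not list had signals of 32.9 to 55.7, at an IDR from 0.0103 to 0.516. A body peak was found at 3 of 9 genes (33.3%, Wilson interval 12.1 to 64.6), namely ct, crb and Cad96Ca, against 8.50% of all genes. The spiracle genes are longer, and per length their bodies held 1.95 peaks per 100 kb, near the 2.02 of the arms. Of the body peaks, only that of Cad96Ca was in both replicate lists.

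**Figure D4:**
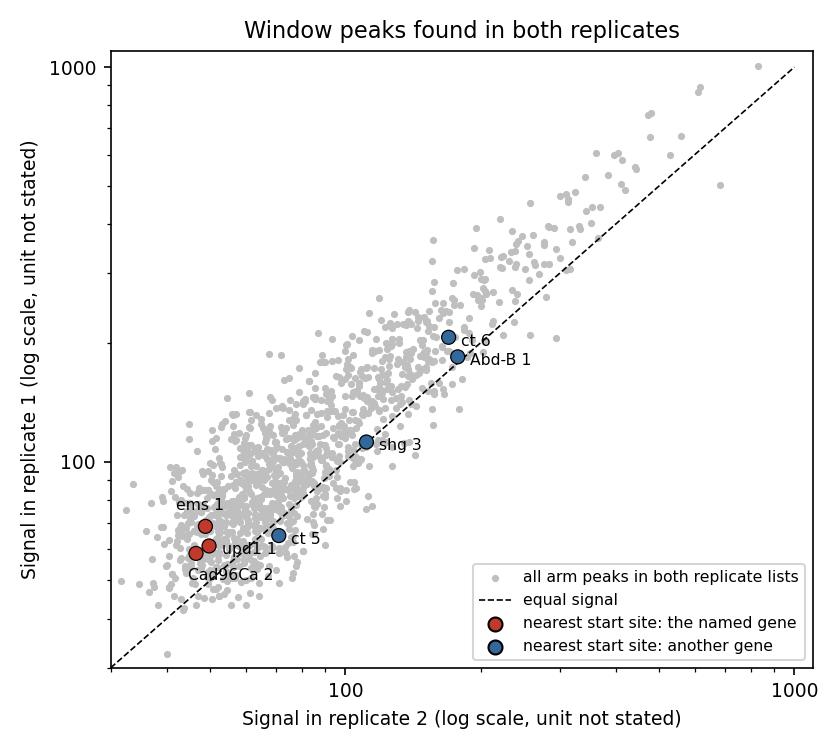
Signal in replicate 1 (vertical axis) against replicate 2 (horizontal axis), both on log scales with the unit not stated, for the 1260 arm peaks in both replicate lists (grey) and the 7 window peaks among them (red, nearest TSS in the named gene; blue, in another gene). The 7 lie inside the grey cloud, the red ones at its low end, and ct peak 5 is the 1 below the dashed line of equal signal.

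Over the 7 replicated peaks the log2 ratio of replicate 1 to replicate 2 ran from -0.13 at ct peak 5 to 0.49 at ems peak 1, with a median of 0.28. Over all 1260 arm peaks in both lists the median was 0.36 (SD 0.36 across peaks). The scale of the signals is not stated, and the replicates were not scaled to each other here. A ratio at the arm median is therefore not read as a difference in binding. The replicated peaks of the spiracle windows thus had ratios like those of other peaks in both lists, within the spread across peaks. Window peaks not in both lists are left out of this comparison. Their ratios in the ranked lists ran from -0.39 at ct peak 2 to 1.26 at ct peak 1. Replicate 1 was higher at 15 of the 19 peaks in the ranked lists. The same count was not made for all arm peaks, and the arm median above covers only those in both thresholded lists.

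The summit windows were searched for the 8 motifs and set beside those of all arm peaks. ACAGTG was in 4 of 19 summit windows (21.1%, Wilson interval 8.51 to 43.3), against 22.2% of all arm windows and 8.64% of windows 700 bp to either side. The 4 were Abd-B peak 1, ct peaks 2 and 4 and crb peak 3, and of these crb peak 3 alone was nearest to the spiracle gene. Abd-B peak 1 carried a copy centred 74 bp to the left of the summit and another 63 bp to the right, and ct peak 4 had copies 66 bp to the left and 79 bp to the right. A second copy was thus present in 2 of 4 windows with the motif, where it was in 14.8% of the 615 arm windows with the motif. All copies lay over 50 bp from the summit, and the 50 bp to either side of the summit held ACAGTG in 0 of 19 windows, which allows a share of up to 15.8%, against 8.59% of arm windows.

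TATCGATA was in 2 windows (10.5%, Wilson interval 2.94 to 31.4, against 2.78% of arm and 0.541% of flanking windows), both at gene starts. These were crb peak 2, at the promoter of Uck, and shg peak 2, at the promoter of shg. GAGAGA was in 4 windows (21.1%, against 9.52% of arm windows), among them both ems peaks and crb peak 3. AGATAA was in 4 (21.1% against 14.5%) and TAATTA in 3 (15.8% against 16.8%). The Wilson interval of GAGAGA includes the arm share, and so do those of AGATAA and of TAATTA; that of TATCGATA starts just above it and rests on 2 windows. The motif GCACCC was in 0 of 19 windows, as was TTTATGG, and so was TTCNNNGAA, where the arm shares were 4.26%, 5.41% and 5.45%. A count of 0 in 19 allows a share of up to 15.8%, so a difference from other peaks was not detectable for these motifs. No match to any of the 8 motifs was found in 8 of the 19 windows, and the arm share was not counted. Among these windows were those of ct peak 1, upd1 peak 1 and Cad96Ca peak 2. The GC content of the windows ran from 25.4% to 46.8% with a median of 34.3%, against 35.3% in arm windows.

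Other genes of the spiracle programme and of JAK/STAT and EGFR signalling, 23 in number, had peaks about as often. A peak was in the window of 17 (73.9%, against the 65.4% above) and within 1000 bp of a TSS at 2 (8.70%, against 14.0%). At 4 of the 23, a peak was nearest to the gene's own TSS, where this held for 14.9% of all genes. The transcription factor of the JAK/STAT pathway, Stat92E, had a peak 957 bp downstream of a TSS, at 3R 20549985 to 20550314, with a signal of 142, 73.1 in replicate 1 and 68.0 in replicate 2. The EGFR ligand gene spi had one 181 bp upstream of a TSS, at 2L 19575603 to 19575932, with a signal of 224, 120 in replicate 1 and 103 in replicate 2. Both were stronger than any peak nearest to one of the 9 genes. Socs36E, a JAK/STAT inhibitor and target, had its strongest peak 6975 bp inside the gene with a signal of 102, listed in replicate 1 alone with 79.6. The RhoGAP gene cv-c had 8 peaks in its window. Exactly this count was found at 0.143% of all genes, and 16 genes had more. Of the cv-c peaks, 3 were in both replicate lists. The strongest, with a signal of 276, was nearest to NK7.1, and both replicates listed it. Of the 8 peaks, 2 were nearest to a cv-c TSS, the stronger with a signal of 112, listed in replicate 1 alone with 70.6. Over all gene windows, the gene had the nearest TSS in only 14.5% of pairs of a gene and a peak. At the other 13 genes with a peak, every peak was nearest to the TSS of some other gene. The strongest of these stood in the window of dome, the JAK/STAT receptor, with a signal of 306 nearest to Zw, and in that of hop, the kinase of the pathway, with 277 nearest to CG1737. Both of those were in both replicate lists. The strongest window peak was 232 at RhoGEF64C, 210 at Cad88C, 176 at Cad86C, 127 at trh and 121 at klu, and both replicates listed each of them. For upd3 it was the upd1 peak with 108. The strongest peaks at Egfr (109) and Ptp61F (98.1) were listed in replicate 1 alone, that of nub (73.8) in replicate 2 alone, and those of hh (87.9) and rho (80.3) in neither. The windows of Cad74A, en, inv, salr, tsh and upd2 held no peak.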

How the data were processed

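Chromatin was sonicated to fragments of 200 to 800 bp and precipitated with anti-GFP, per the labels. The deposited text files name, for the joint lists, both replicates' alignments plus a control, and for each replicate's lists its own plus the control, on dm6. No aligner or peak caller is named. Each peak carries a signal as deposited by the authors, its own value with no stated scale, used only to describe and rank peaks within a list. Ranked lists also hold the deposited −log10 of the global IDR, 0.01 or less throughout the optimal list. Their 8 unlabelled per-input signal columns were not used. Replicate values came from each replicate's own lists, as the strongest peak overlapping by 1 bp or more.

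Gene models were Ensembl release 115 (13968 protein-coding genes and 30773 transcripts on the arms) and the sequence RefSeq's Release 6, with 0 arm peaks past an arm end. All 9 symbols matched. The 74 peaks off the arms count in ranks only. Coordinates are 1-based. A width of 330 bp was shared by 87.1% of arm peaks and 17 of the 19, so summits may be placed coarsely. The members, gene lists and motifs were chosen with earlier results of these data known. The text names the 9 genes with every window peak, the genes nearest to those peaks or holding their summits, and the listed other genes with a peak. No test was run. Floors for a count of 0 use 3 counts. Alternatives were the authors' other lists, IDR, window, distance and overlap limits. Counting, overlap and motif search were tested on simulated data. Software: matplotlib 3.10.9, pandas 2.3.3, scipy 1.17.1, numpy 2.4.6, Python 3.11.15.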

Additional observations from a re-analysis of the deposited data

How the results depend on the processing

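Of the 72 recounts of peaks in a single gene's window, 47 stayed within 1.5 times the reported count and 25 did not. The tally includes salm and grn, whose count of 0 cannot fall under a stricter list or a narrower window. The 9 windows held 19 peaks in the conservative list and with the strongest of overlapping peaks alone. They held 7 at an IDR of 0.001 or less, 7 when peaks went to the nearest TSS at any distance, 8 with 5 kb to each side, 36 with 50 kb, and 8 to 15 when a replicate was left out. The density was 1.24 peaks per 100 kb at an IDR of 0.001 or less, against 0.930 on the arms, and 1.42 to 2.65 with a replicate left out, against 1.21 and 1.28 on the arms. Of the 9 genes, 4 had a peak with 5 kb to each side (34.6% of all genes), 8 with 50 kb (86.1%), 6 at an IDR of 0.001 or less (43.8%), 6 by nearest TSS (14.9%), and 7 in the conservative list (63.1%) or with a replicate left out (51.0% and 53.0%). A summit near a TSS was found at 1 gene within 500 bp (shg; 11.6% of all genes) and at 0 genes at an IDR of 0.001 or less (8.04%), where a count of 0 among 9 genes is near that share. With ranked lists in place of thresholded ones, 19 of 19 peaks overlapped an entry in both replicates. Those lists are long (130607 and 81899 entries) and the overlapped entries had an IDR up to 0.858. The overlap is therefore weak as replicate support, and it was not counted for all arm peaks. The share of windows with ACAGTG was 0% with 50 bp to either side of the summit in place of 100 bp. No paired analysis was possible because there is 1 group. With 2 replicates and no read counts, depth could not be weighed.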
